A study of Homo sapiens with 18 samples.

Results

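Genes of cellular iron handling were followed through amino acid and serum starvation in HAP1, a human cell line with a near-haploid genome and an origin in chronic myeloid leukaemia. The set held 9 genes of the 63677 gene identifiers in the count tables: the exporter SLC40A1, the importers TFRC and SLC11A2, the ferritin chains FTH1 and FTL, the ferritin receptor NCOA4, the RNA-binding sensors IREB2 and ACO1, and the ubiquitin ligase subunit FBXL5. SLC40A1 was chosen by its measured log2 fold change on starvation, which was known to be large in these libraries, and the other genes by their role, so its starvation response is given as a description with no test. Reads were found for 8 of the 9 genes, and these 8 were among the 15179 genes with enough reads for testing.

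The 18 poly(A) RNA-seq libraries fell into 6 groups of 3. Cells with an ATG7 knockout (ATG7KO), cells labelled as an RB1CC1 knockout (RB1CC1KO) and parental cells (WT) were each sampled after 6 h of EBSS, a buffered solution of salts and glucose that lacks amino acids and serum, and in full medium (IMDM with 10% fetal calf serum). ATG7 activates the ubiquitin-like proteins that build autophagosomes, and RB1CC1 is a scaffold of the kinase complex that starts autophagy. Each genotype was 1 cell line, so that an effect of the knockout and a difference between lines cannot be told apart. The labels state independent biological replicates. Libraries held 4892072 to 26005942 reads in genes, and 16 of them held 11994110 to 19073798. The exceptions were ATG7KO EBSS replicate 3, the shallowest, and RB1CC1KO EBSS replicate 2, the deepest. Mitochondrial reads took 1.41 to 2.36% of reads after EBSS, against 3.24 to 4.26% in full medium.

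ATG7 RNA averaged 4.01 ± 0.435 CPM (read counts scaled to library size; SD, n = 3) in ATG7KO and 15.5 ± 1.30 CPM in WT in full medium. After EBSS it averaged 10.4 ± 0.533 CPM in ATG7KO and 16.1 ± 1.68 CPM in WT. RB1CC1 RNA was not lower in the libraries labelled RB1CC1KO: it averaged 157 ± 12.7 CPM there and 105 ± 10.3 CPM in WT in full medium, and 263 ± 14.8 CPM against 222 ± 10.8 CPM after EBSS. A whole-gene count is blind to a short frameshift, so RNA does not check this label. The term RB1CC1KO-labelled is used for these cells.

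Cells take up transferrin-bound iron through the transferrin receptor (TFRC), reduce it in endosomes and move it to the cytosol with SLC11A2 (DMT1). Iron not in use is kept in ferritin, a shell of heavy (FTH1) and light (FTL) chains, and leaves the cell through ferroportin (SLC40A1), the only known cellular iron exporter in mammals. NCOA4 carries ferritin to autophagosomes, so that lysosomes release its iron, a process called ferritinophagy that needs the autophagy machinery. The iron regulatory proteins ACO1 (IRP1) and IREB2 (IRP2) bind hairpins called iron-responsive elements when iron is scarce. A hairpin in the 5′ untranslated region then blocks translation, as in the ferritin and ferroportin messages, whereas hairpins in the 3′ untranslated region protect the TFRC message from decay. FBXL5 directs the degradation of the iron regulatory proteins when iron is plentiful.

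The hairpins that a search found in members are shown because their place differs. They lay in the 5′ untranslated region of SLC40A1, FTH1 and FTL and in the 3′ untranslated region of TFRC. A search of GENCODE 29 transcripts (GRCh38), on the sense strand, asked for an unpaired C, 5 pairs of the upper stem, the loop CAGTGN and at least 4 of 5 pairs of the lower stem, with G-U pairs allowed. It found 4 of the 9 members and 29 of 19702 protein-coding genes in all, which is 0.147%. The 27 bases of each match follow 5′ to 3′ with the 6 loop bases in capitals. The count files were made on another build, GRCh37, so that positions are GRCh38 throughout.
SLC40A1, 5′ untranslated region, chr2:189580662-189580688, minus strand: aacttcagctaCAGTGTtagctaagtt
FTH1, 5′ untranslated region, chr11:61967575-61967601, minus strand: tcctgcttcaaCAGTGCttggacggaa
FTL, 5′ untranslated region, chr19:48965336-48965362, plus strand: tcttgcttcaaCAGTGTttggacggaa
TFRC 1, 3′ untranslated region, chr3:196050980-196051006, minus strand: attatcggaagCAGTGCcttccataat
TFRC 2, 3′ untranslated region, chr3:196050576-196050602, minus strand: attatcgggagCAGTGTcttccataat
TFRC 3, 3′ untranslated region, chr3:196050511-196050537, minus strand: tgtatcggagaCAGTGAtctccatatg
TFRC 4, 3′ untranslated region, chr3:196050464-196050490, minus strand: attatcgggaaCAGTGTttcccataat

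The ferritin hairpins were alike at 25 of 27 bases, and the SLC40A1 hairpin matched each of them at 13 of 27. No match for these letters was found in the transcripts of NCOA4, IREB2, ACO1, SLC11A2 or FBXL5. Nothing follows from this about other forms of the element, or about control of these messages by iron regulatory proteins.

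Per kilobase of exon, the ferritin chains were the most abundant members. In WT in full medium FTL averaged 292 ± 16.0 CPM per kb and FTH1 180 ± 2.48, against 60.1 ± 4.23 for TFRC. IREB2 averaged 29.7 ± 0.962 CPM per kb, ACO1 14.4 ± 1.13, FBXL5 10.5 ± 0.765 and SLC11A2 5.23 ± 0.261. The exporter was the least abundant of the 8, with SLC40A1 at 0.827 ± 0.0648 CPM per kb. All later levels are CPM scaled by the TMM method and not divided by length. In these bulk libraries, fewer cells with a message and less of it per cell cannot be told apart.

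**Figure D1:**
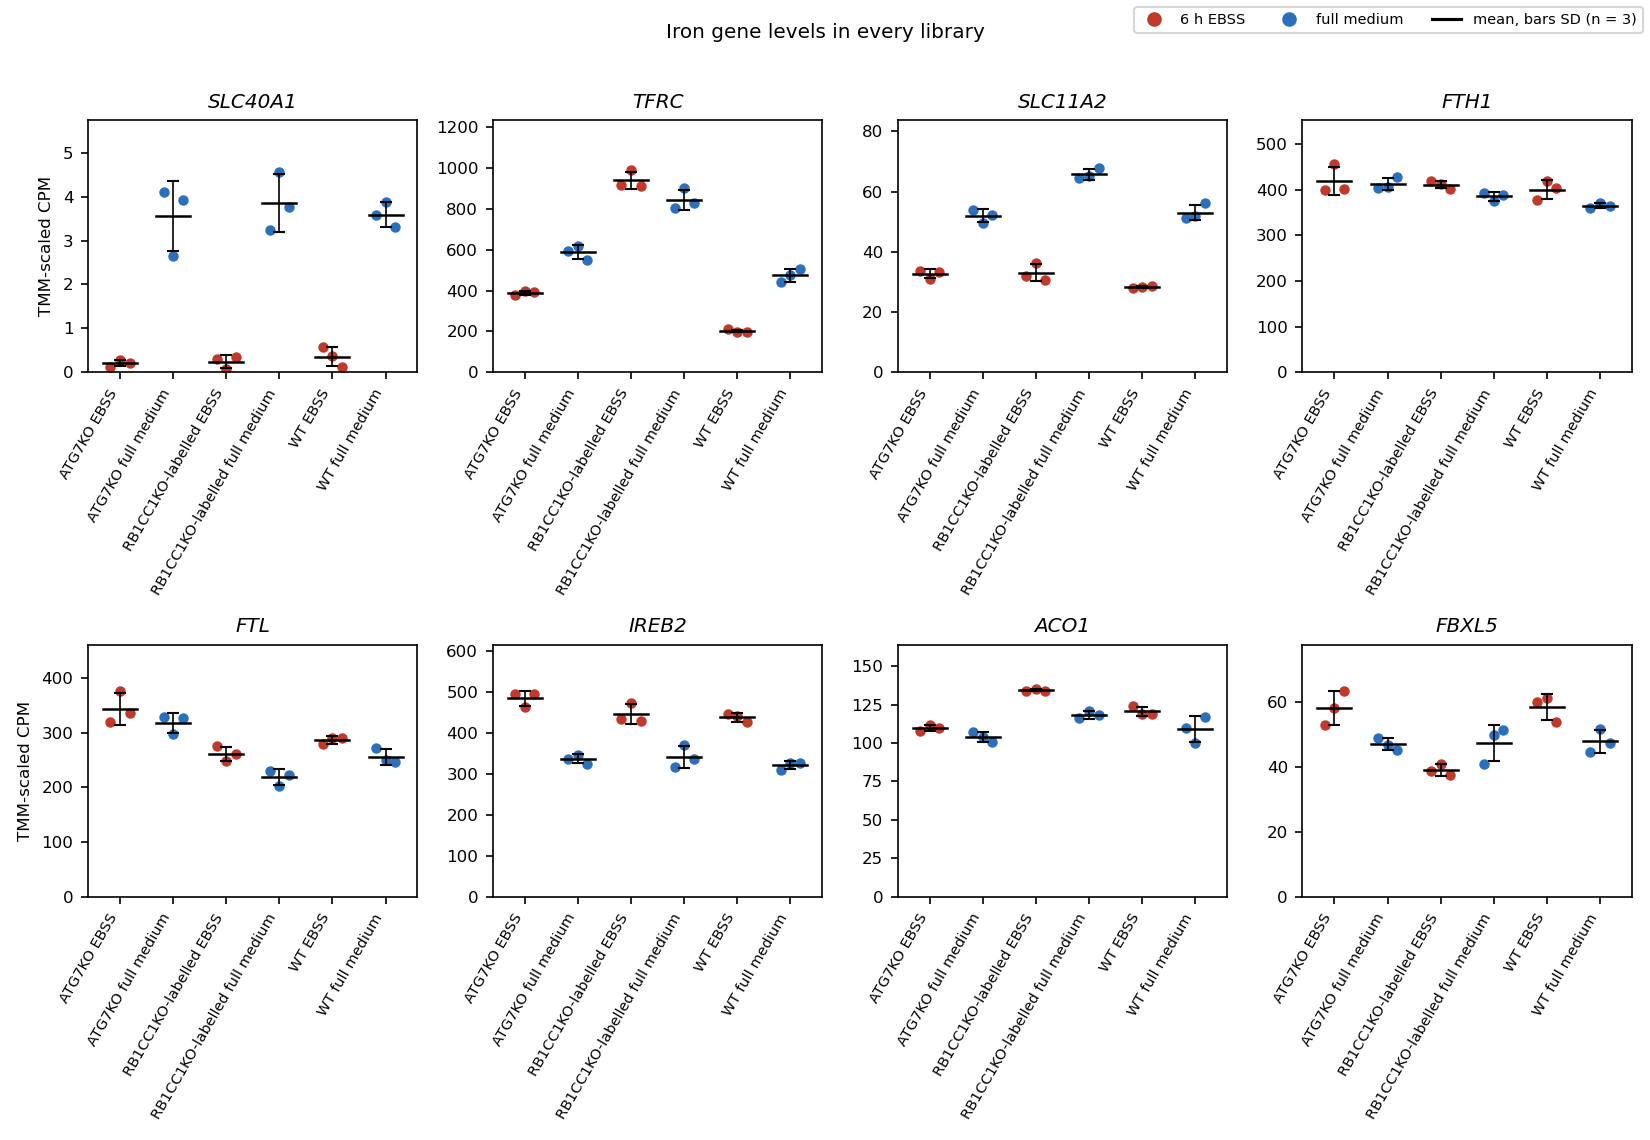
TMM-scaled CPM of the 8 members with reads (vertical axes, each starting at 0) in every library of the 6 groups, with group means and SD bars (n = 3). SLC40A1 lay at the bottom of its axis in all 9 EBSS libraries, and TFRC took a separate level in each of the 6 groups.

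SLC40A1 (ENSG00000138449, chr2:189560579-189583758, minus strand), the gene that the set was chosen around, held few reads in any library. ATG7KO libraries had 2, 4 and 1 reads after EBSS and 74, 49 and 63 in full medium. RB1CC1KO-labelled libraries had 5, 2 and 5 reads after EBSS and 55, 81 and 62 in full medium, and WT libraries had 8, 6 and 2 after EBSS and 49, 78 and 42 in full medium. All 9 EBSS libraries lay below all 9 full-medium libraries. Mean levels were 0.204 ± 0.0715 CPM in ATG7KO, 0.244 ± 0.141 CPM in RB1CC1KO-labelled and 0.357 ± 0.220 CPM in WT after EBSS (SD, n = 3 each), against 3.56 ± 0.799, 3.85 ± 0.663 and 3.58 ± 0.281 CPM in the same lines in full medium.

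The log2 fold change of SLC40A1 for EBSS over full medium was -4.09 ± 0.42 (SE) in ATG7KO, -4.08 ± 0.36 in RB1CC1KO-labelled and -3.33 ± 0.35 in WT cells. Ranked from the lowest log2 fold change, it stood at place 31, 37 and 58 of 15179 in those lines. Since these values chose the gene, they are a description. With so few reads after EBSS, single libraries moved them: the WT value was -3.82 without WT EBSS replicate 1 and -2.93 without WT EBSS replicate 3. The ATG7KO value was -4.55 without ATG7KO EBSS replicate 2, and the RB1CC1KO-labelled value was -3.55 without RB1CC1KO-labelled EBSS replicate 2, the deepest library.

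SLC40A1 was also compared between lines within a medium, another contrast than the one that chose it, but built on the same libraries. In full medium its log2 fold change was -0.02 ± 0.23 for ATG7KO over WT (edgeR quasi-likelihood test, adjusted p = 0.973) and 0.10 ± 0.23 for RB1CC1KO-labelled over WT (adjusted p = 0.826). After EBSS the values were -0.78 ± 0.66 (adjusted p = 0.508) and -0.65 ± 0.58 (adjusted p = 0.42), with standard errors wide enough that a difference of this size was not detectable at this depth. The low EBSS levels were part of what chose the gene, so the comparisons after EBSS are not independent of that choice. The gap between EBSS responses, which is built from the values that chose the gene and has no test, was -0.76 ± 0.70 for ATG7KO minus WT and -0.74 ± 0.62 for RB1CC1KO-labelled minus WT.

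By the smallest root-mean-square difference of centred log2 CPM over the 18 libraries, the genes closest to SLC40A1 were AC019069.1 (0.54), ARRDC3 (0.55), CCDC71 (0.56), TTC30A (0.57) and AC005837.1 (0.59), where SLC40A1 itself had a spread of 1.95. These points share 1 contrast, EBSS against full medium. AC019069.1, TTC30A and AC005837.1 each have 1 exon in the annotation, whereas SLC40A1 has 12. ARRDC3, an alpha-arrestin, had log2 fold changes of -4.01 in ATG7KO, -4.11 in RB1CC1KO-labelled and -4.09 in WT cells.

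Macrophages, hepatocytes and erythroid cells are where iron export and its hormone are best known, so their markers were read beside SLC40A1. Of 7 macrophage markers, CD163, MARCO and MRC1 had no read in any library. The summed level of the 7 was 1.10 to 2.07 CPM in EBSS libraries and 0 to 0.397 CPM in full medium. CD14 averaged 1.29 ± 0.338 CPM in ATG7KO, 1.30 ± 0.374 CPM in RB1CC1KO-labelled and 0.898 ± 0.226 CPM in WT cells after EBSS. CD14 was the 1 marker of that list with enough reads for testing, and only through its EBSS libraries. It was called higher after EBSS in all 3 lines, a direction that the filter favoured, so the call is a description. Of 6 hepatocyte markers, TTR had no read, and the summed level ran from 0.543 to 3.08 CPM after EBSS and from 0.0556 to 0.788 CPM in full medium. ALB, the only one of them tested, was called higher after EBSS in every line. With so low a sum in full medium, that call is read as a description too.

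Of 10 erythroid markers, HBE1 and HBG1 were among those with no read, and the sum was 2.18 to 3.75 CPM after EBSS and 4.10 to 5.70 CPM in full medium. EPOR, the erythropoietin receptor, was called lower after EBSS in all 3 lines, and HBA1, the other one tested, was not called in any. Of 12 haematopoietic markers, GATA1 and MPO had no read, and PTPRC, which marks nearly all white blood cells, stayed at or below 0.281 CPM. Their sum was 8.27 to 11.1 CPM in ATG7KO, 30.5 to 33.0 CPM in RB1CC1KO-labelled and 33.5 to 39.6 CPM in WT cells after EBSS, against 22.7 to 23.6, 71.8 to 80.3 and 64.3 to 74.1 CPM in full medium. Of the 5 tested, 4 were called lower and 0 higher after EBSS in ATG7KO, 3 lower and 1 higher in RB1CC1KO-labelled and 3 lower and 0 higher in WT cells, with TAL1, KIT and RUNX1 lower in every line. Beside these marker calls, EBSS called 62.9, 65.1 and 64.5% of all tested genes in ATG7KO, RB1CC1KO-labelled and WT cells. The part of any of these markers in the iron genes' values was not tested.

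The other members answer how iron uptake, storage and sensing messages responded to EBSS in each line. SLC11A2 fell and IREB2 rose in all 3 lines, TFRC fell in ATG7KO and WT cells, and the ferritin chains moved by little. Of the 7 members tested, 4 were called in ATG7KO (2 higher and 2 lower), beside 62.9% of all tested genes (32.3% higher and 30.6% lower). In RB1CC1KO-labelled cells 6 of 7 were called (4 higher and 2 lower), beside 65.1% of all tested genes (31.9% higher and 33.3% lower). In WT all 7 were called (5 higher and 2 lower), beside 64.5% (32.4% higher and 32.1% lower). With so large a background, being called says little about the members, and their sizes carry more than their count. The median log2 fold change of all tested genes lay at -0.01 in ATG7KO, -0.03 in RB1CC1KO-labelled and -0.02 in WT cells.

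**Figure D2:**
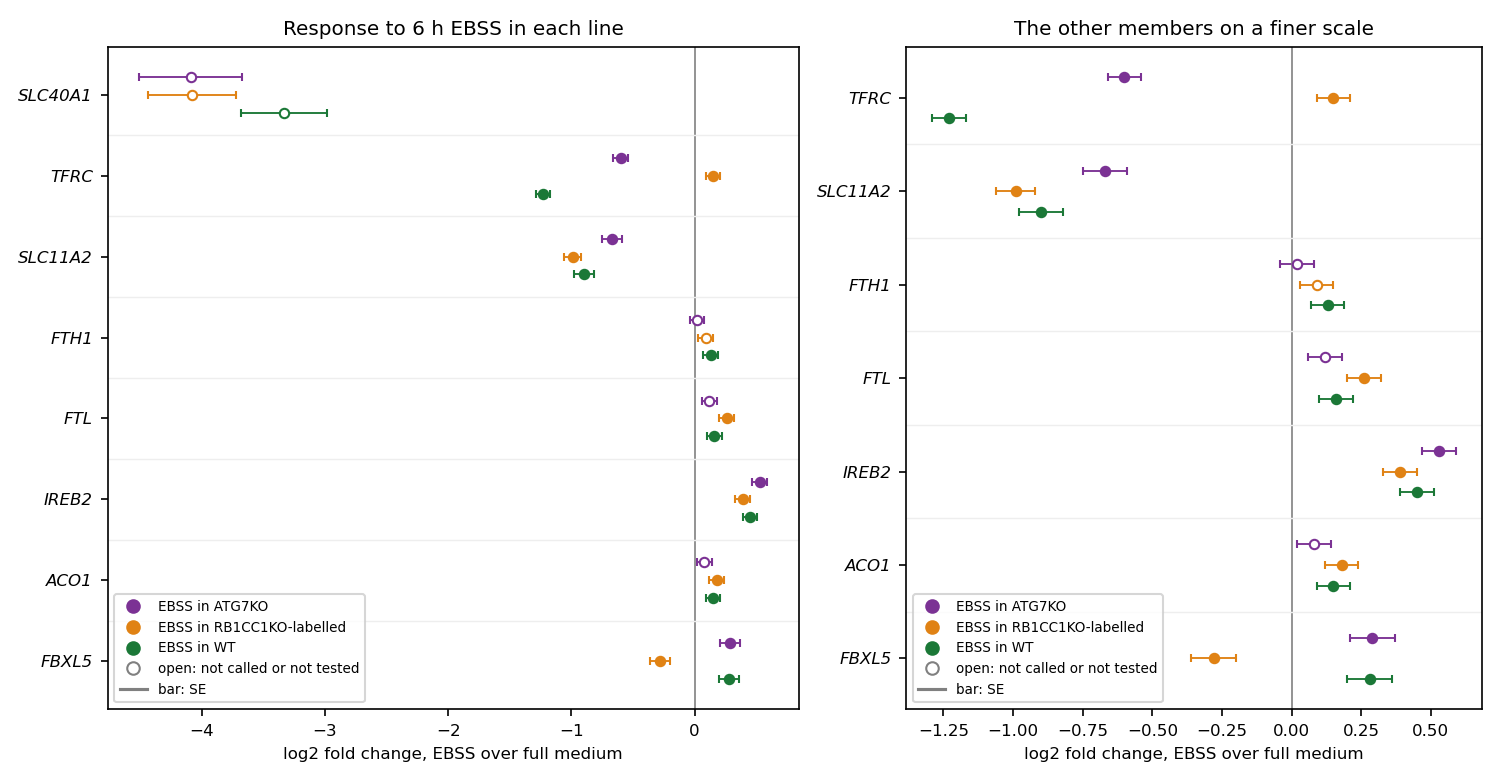
Log2 fold changes of the 8 members for EBSS over full medium (horizontal axes) in ATG7KO, RB1CC1KO-labelled and WT cells, with SE bars; filled points were called at an adjusted p below 0.05 and open points were not called, or, for SLC40A1, not tested. TFRC lay at -0.60 in ATG7KO, 0.15 in RB1CC1KO-labelled and -1.23 in WT cells, while SLC11A2 lay below 0 and IREB2 above 0 in all 3 lines.

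TFRC (ENSG00000072274, chr3:196027183-196082189, minus strand), the receptor for iron-loaded transferrin, differed most between lines. In ATG7KO it stood at 376, 397 and 393 CPM after EBSS, against 596, 619 and 552 CPM in full medium. In RB1CC1KO-labelled cells it stood at 917, 989 and 912 CPM after EBSS, against 805, 900 and 830 CPM in full medium. In WT it stood at 210, 199 and 197 CPM after EBSS, against 440, 476 and 507 CPM in full medium. The EBSS libraries were the lower ones in ATG7KO and in WT and the higher ones in RB1CC1KO-labelled cells, with no overlap within any line.

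TFRC fell on EBSS by 0.60 ± 0.06 on the log2 scale in ATG7KO, which is 1.52-fold (adjusted p = 1.85e-10), and by 1.23 ± 0.06 in WT, which is 2.35-fold (adjusted p = 1.75e-18). In RB1CC1KO-labelled cells it was 0.15 ± 0.06 higher (adjusted p = 0.026). That small rise was not called without RB1CC1KO-labelled EBSS replicate 2 (0.12, adjusted p = 0.127), without RB1CC1KO-labelled full-medium replicate 1 (0.12, adjusted p = 0.123) or replicate 3 (0.16, adjusted p = 0.0517), and it stood at 0.01 under upper-quartile scaling (adjusted p = 0.877).

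The difference between EBSS responses was tested directly as an interaction. For TFRC it was 0.63 ± 0.09 for ATG7KO minus WT (adjusted p = 2.34e-05), the 14th smallest p of 15179 genes, and 1.38 ± 0.09 for RB1CC1KO-labelled minus WT (adjusted p = 2.69e-13), the smallest of all 15179. Both differences were positive and called in every alternative run, including each library left out in turn. TFRC was the 1 member of 7 called for ATG7KO minus WT, where 1.05% of all tested genes were called (0.369% higher and 0.685% lower). For RB1CC1KO-labelled minus WT, 2 of 7 members were called, TFRC (higher) and FBXL5 (lower), beside 8.16% of all tested genes (2.68% higher and 5.47% lower). These 2 differences share the WT libraries.

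TFRC was also higher in both knockout-labelled lines than in WT in each medium. In full medium the log2 fold change was 0.31 ± 0.06 for ATG7KO over WT (adjusted p = 0.000372) and 0.83 ± 0.06 for RB1CC1KO-labelled over WT (adjusted p = 4.07e-13). After EBSS it was 0.94 ± 0.06 (adjusted p = 5.05e-14) and 2.22 ± 0.06 (adjusted p = 3.99e-25), the second of which is 4.66-fold. From high to low, TFRC averaged 940 ± 43.2 CPM in RB1CC1KO-labelled EBSS, 845 ± 49.4 in RB1CC1KO-labelled full medium, 589 ± 34.5 in ATG7KO full medium, 474 ± 33.3 in WT full medium, 389 ± 10.9 in ATG7KO EBSS and 202 ± 6.59 CPM in WT EBSS (SD, n = 3 each). No 2 neighbours in that order overlapped.

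**Figure D3:**
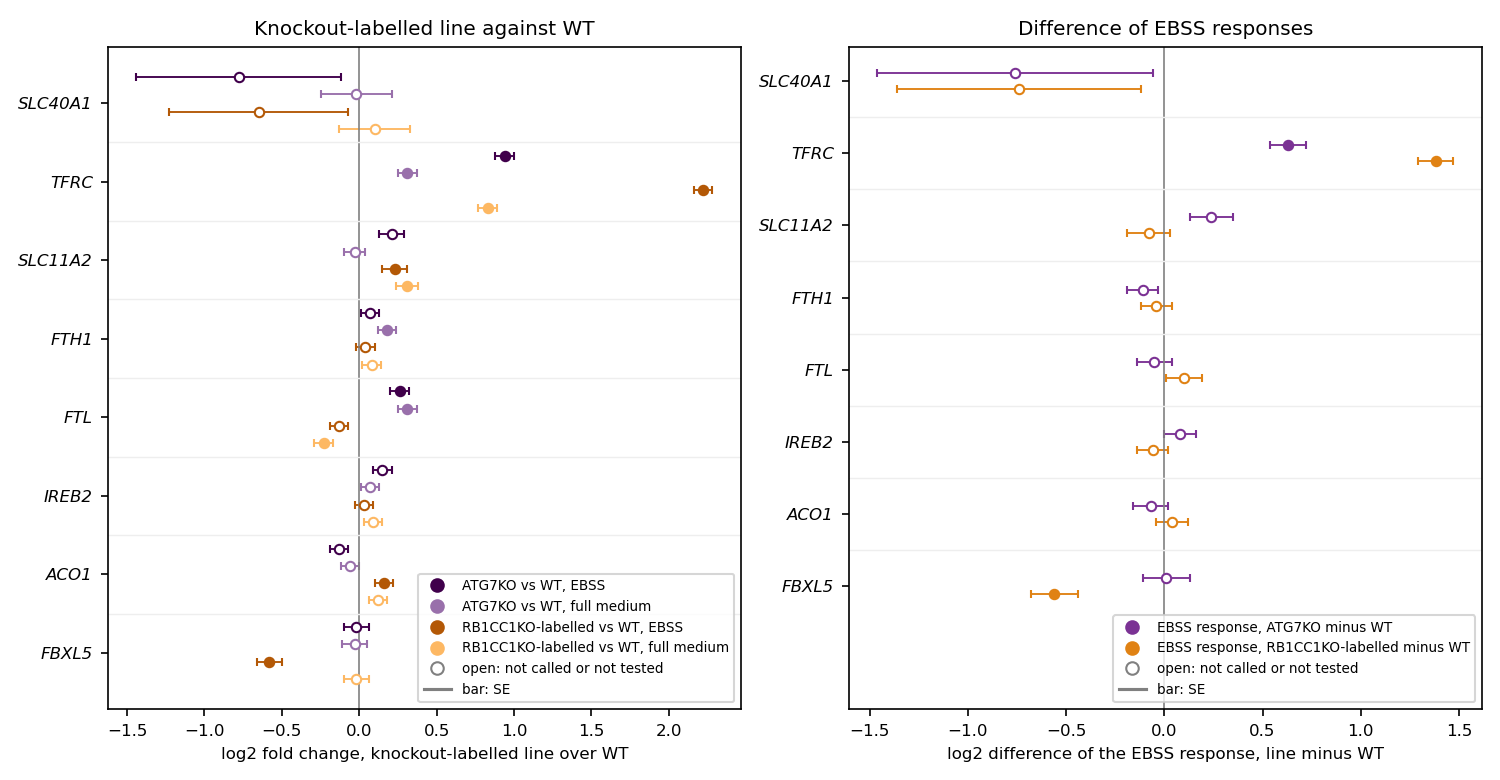
Log2 fold changes of the 8 members for each knockout-labelled line over WT in each medium (left) and the difference of their EBSS responses from that of WT (right), with SE bars; filled points were called, open points were not called or, for SLC40A1 in the right panel, not tested. TFRC lay at 0.31 to 2.22 in the left panel and at 0.63 and 1.38 in the right panel, and FBXL5 lay below 0 for RB1CC1KO-labelled cells after EBSS.

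The genes whose profile over the 18 libraries lay closest to TFRC were ADAMTSL4 (root-mean-square difference 0.31), SNX19 (0.34), SYT7 (0.35), NHS (0.38) and CNTFR (0.38), where TFRC itself had a spread of 0.74. Their own EBSS responses were smaller than that of TFRC in WT. The closest, ADAMTSL4, had log2 fold changes of -0.32 in ATG7KO, -0.07 in RB1CC1KO-labelled and -0.58 in WT cells.

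SLC11A2 (ENSG00000110911, chr12:50979401-51028566, minus strand), the endosomal and cell-surface importer of ferrous iron, was lower after EBSS in every line. In ATG7KO it stood at 33.8, 31.1 and 33.3 CPM after EBSS, against 53.9, 49.6 and 52.3 CPM in full medium. In RB1CC1KO-labelled cells it stood at 32.1, 36.2 and 30.8 CPM after EBSS, against 64.4, 65.1 and 67.8 CPM in full medium. In WT it stood at 27.9, 28.3 and 28.7 CPM after EBSS, against 51.3, 51.8 and 56.1 CPM in full medium. The highest of the 9 EBSS libraries lay below the lowest of the 9 full-medium libraries.

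SLC11A2 fell by 0.67 ± 0.08 on the log2 scale in ATG7KO (adjusted p = 3.08e-09), by 0.99 ± 0.07 in RB1CC1KO-labelled (adjusted p = 3.86e-14) and by 0.90 ± 0.08 in WT cells (adjusted p = 1.33e-12). The responses were not shown to differ between lines, at 0.24 ± 0.11 for ATG7KO minus WT (adjusted p = 0.304) and -0.08 ± 0.11 for RB1CC1KO-labelled minus WT (adjusted p = 0.707). In full medium SLC11A2 was 0.31 ± 0.07 higher in RB1CC1KO-labelled than in WT cells (adjusted p = 0.00176). After EBSS that gap was 0.23 ± 0.08 (adjusted p = 0.0227), which was not called without RB1CC1KO-labelled EBSS replicate 2 (0.15, adjusted p = 0.179), nor without WT EBSS replicate 1 (adjusted p = 0.0524) or replicate 2 (adjusted p = 0.0574). SLC11A2 in ATG7KO did not pass the test against WT in either medium (-0.03 ± 0.07, adjusted p = 0.858 in full medium and 0.21 ± 0.08, adjusted p = 0.0943 after EBSS).

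The ferritin chains changed little on EBSS. FTH1 (ENSG00000167996, chr11:61959718-61967660, minus strand), the chain that oxidises ferrous iron, had 400, 456 and 403 CPM after EBSS and 404, 407 and 428 CPM in full medium in ATG7KO. It had 419, 412 and 403 CPM after EBSS and 394, 375 and 388 CPM in full medium in RB1CC1KO-labelled cells, and 378, 420 and 404 CPM after EBSS and 361, 371 and 364 CPM in full medium in WT. The media overlapped in ATG7KO and not in the other lines. The log2 fold change was 0.02 ± 0.06 in ATG7KO (adjusted p = 0.722), 0.09 ± 0.06 in RB1CC1KO-labelled (adjusted p = 0.153) and 0.13 ± 0.06 in WT cells (adjusted p = 0.0427).

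FTL (ENSG00000087086, chr19:48965301-48966878, plus strand), the chain that promotes the iron core, had 320, 376 and 336 CPM after EBSS and 329, 297 and 327 CPM in full medium in ATG7KO. It had 275, 249 and 261 CPM after EBSS and 231, 202 and 223 CPM in full medium in RB1CC1KO-labelled cells, and 279, 291 and 290 CPM after EBSS and 272, 250 and 246 CPM in full medium in WT. Again the media overlapped only in ATG7KO. The log2 fold change was 0.12 ± 0.06 in ATG7KO (adjusted p = 0.111), 0.26 ± 0.06 in RB1CC1KO-labelled (adjusted p = 0.000662) and 0.16 ± 0.06 in WT cells (adjusted p = 0.0261).

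The WT calls of both ferritin chains were fragile. FTH1 was not called with any 1 of the 6 WT libraries left out (adjusted p between 0.0591 and 0.186) and FTL was not called without WT full-medium replicate 2 or 3 or any 1 of the WT EBSS replicates (adjusted p between 0.058 and 0.19). Under upper-quartile scaling, which put the median gene at -0.17 on EBSS, FTH1 stood at -0.14 in ATG7KO (adjusted p = 0.0345) and at -0.02 in WT (adjusted p = 0.777), and FTL at 0.12 in RB1CC1KO-labelled (adjusted p = 0.116) and 0.01 in WT (adjusted p = 0.889). Neither chain's response was shown to differ from WT, with differences of -0.11 ± 0.08 and -0.04 ± 0.08 for FTH1 and -0.05 ± 0.09 and 0.10 ± 0.09 for FTL in ATG7KO and RB1CC1KO-labelled cells.

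Between lines the light chain moved in opposite directions. In full medium FTL was 0.31 ± 0.06 higher in ATG7KO than in WT (adjusted p = 0.000816) and 0.23 ± 0.06 lower in RB1CC1KO-labelled than in WT cells (-0.23, adjusted p = 0.0117). The second was not called without WT full-medium replicate 1 (-0.18, adjusted p = 0.0878) or RB1CC1KO-labelled full-medium replicate 2 (-0.19, adjusted p = 0.0775). After EBSS, FTL was 0.26 ± 0.06 higher in ATG7KO than in WT (adjusted p = 0.00406), a call lost without ATG7KO EBSS replicate 2 (0.17, adjusted p = 0.149) or WT EBSS replicate 1 (0.23, adjusted p = 0.0514), and -0.13 ± 0.06 in RB1CC1KO-labelled over WT cells (adjusted p = 0.116). FTH1 was 0.18 ± 0.06 higher in ATG7KO than in WT in full medium (adjusted p = 0.0421), which was not called with any 1 of the 6 libraries left out (adjusted p between 0.0692 and 0.162). FTH1 was not called in the other line comparisons (0.08 ± 0.06, adjusted p = 0.392 for RB1CC1KO-labelled in full medium, and 0.07 ± 0.06 and 0.04 ± 0.06 for ATG7KO and RB1CC1KO-labelled after EBSS, adjusted p = 0.506 and 0.651).

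Ratios of reads within a library need no scaling between libraries, and gene length cancels when groups are compared. The TFRC to FTH1 ratio was 0.929 ± 0.054 after EBSS and 1.43 ± 0.123 in full medium in ATG7KO, 2.29 ± 0.106 and 2.19 ± 0.186 in RB1CC1KO-labelled, and 0.506 ± 0.0427 and 1.30 ± 0.0862 in WT cells (SD, n = 3 each). EBSS and full medium did not overlap in ATG7KO or in WT, and they overlapped in RB1CC1KO-labelled cells. The FTL to FTH1 ratio was 0.820 ± 0.0164 and 0.769 ± 0.0434 in ATG7KO, 0.636 ± 0.0272 and 0.567 ± 0.0246 in RB1CC1KO-labelled, and 0.717 ± 0.022 and 0.701 ± 0.0456 in WT cells after EBSS and in full medium. It was lower in all 6 RB1CC1KO-labelled libraries than in all 12 others. The ratios are descriptions, and no test was run on them.

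**Figure D4:**
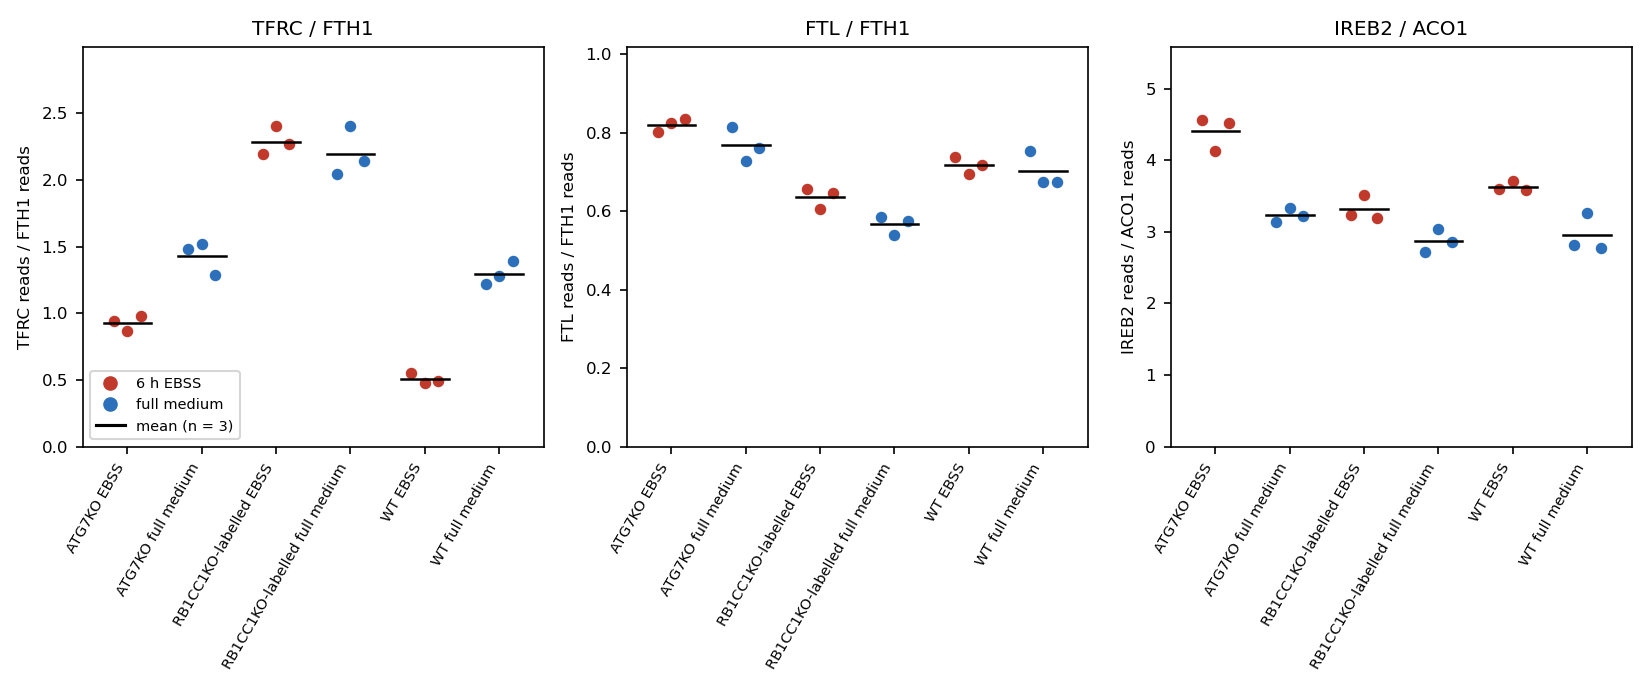
Ratio of reads of TFRC to FTH1, FTL to FTH1 and IREB2 to ACO1 in every library (vertical axes, from 0) by group, with the mean of 3 libraries as a bar. The TFRC to FTH1 ratio averaged 0.506 in WT EBSS and 1.30 in WT full medium, while in RB1CC1KO-labelled cells it was 2.29 after EBSS and 2.19 in full medium.

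Of the iron regulatory proteins, IREB2 responded more than ACO1. IREB2 (ENSG00000136381, chr15:78437431-78501456, plus strand), which is controlled by its degradation, had 495, 463 and 496 CPM after EBSS and 337, 347 and 325 CPM in full medium in ATG7KO. It had 434, 474 and 429 CPM after EBSS and 316, 370 and 337 CPM in full medium in RB1CC1KO-labelled cells, and 445, 442 and 426 CPM after EBSS and 309, 327 and 327 CPM in full medium in WT. All 9 EBSS libraries lay above all 9 full-medium libraries. IREB2 rose by 0.53 ± 0.06 on the log2 scale in ATG7KO (adjusted p = 1.71e-09), by 0.39 ± 0.06 in RB1CC1KO-labelled (adjusted p = 6.01e-07) and by 0.45 ± 0.06 in WT cells (adjusted p = 4.64e-08).

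IREB2 was not called between any line and WT in either medium, with log2 fold changes of 0.03 to 0.15 and adjusted p between 0.106 and 0.764, nor in its EBSS response (0.08 ± 0.08 for ATG7KO minus WT and -0.06 ± 0.08 for RB1CC1KO-labelled minus WT). ACO1 (ENSG00000122729, chr9:32384603-32454769, plus strand), which is a cytosolic aconitase when it holds an iron-sulfur cluster and an RNA-binding protein without it, averaged 110 ± 1.88 CPM after EBSS and 104 ± 3.16 CPM in full medium in ATG7KO, 134 ± 0.237 and 118 ± 2.60 CPM in RB1CC1KO-labelled, and 121 ± 2.72 and 109 ± 8.52 CPM in WT cells. Its log2 fold change was 0.08 ± 0.06 in ATG7KO (adjusted p = 0.253), 0.18 ± 0.06 in RB1CC1KO-labelled (adjusted p = 0.00705) and 0.15 ± 0.06 in WT (adjusted p = 0.0326). The WT value was -0.01 under upper-quartile scaling (adjusted p = 0.93), and it was not called without WT full-medium replicate 1 (adjusted p = 0.0566) or 2 (0.09, adjusted p = 0.249) or WT EBSS replicate 1 (0.10, adjusted p = 0.223). The RB1CC1KO-labelled value was 0.04 under that scaling (adjusted p = 0.546).

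After EBSS, ACO1 was 0.16 ± 0.06 higher in RB1CC1KO-labelled than in WT cells (adjusted p = 0.0387), a call lost without WT EBSS replicate 2 or 3 or RB1CC1KO-labelled EBSS replicate 2 or 3 (adjusted p between 0.0714 and 0.106). The other ACO1 comparisons between lines were not called, at -0.06 ± 0.06 (adjusted p = 0.577) for ATG7KO and 0.12 ± 0.06 (adjusted p = 0.172) for RB1CC1KO-labelled over WT in full medium, and at -0.13 ± 0.06 (adjusted p = 0.173) for ATG7KO after EBSS. The IREB2 to ACO1 read ratio was 4.40 ± 0.238 after EBSS and 3.23 ± 0.0954 in full medium in ATG7KO, 3.31 ± 0.180 and 2.87 ± 0.160 in RB1CC1KO-labelled, and 3.63 ± 0.0666 and 2.95 ± 0.266 in WT cells (SD, n = 3 each). It was higher after EBSS in every line with no overlap.

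FBXL5 (ENSG00000118564, chr4:15604539-15681679, minus strand), the iron-sensing subunit of the ligase that degrades the iron regulatory proteins, went in different directions in different lines. It stood at 53.1, 58.3 and 63.6 CPM after EBSS and 49.0, 46.9 and 45.3 CPM in full medium in ATG7KO. In RB1CC1KO-labelled cells it stood at 38.7, 41.1 and 37.6 CPM after EBSS and 41.1, 49.9 and 51.6 CPM in full medium, and in WT at 60.2, 61.4 and 54.0 CPM after EBSS and 44.8, 51.8 and 47.6 CPM in full medium. EBSS libraries were the higher ones in ATG7KO and in WT without overlap, and in RB1CC1KO-labelled cells they were the lower ones, with the nearest library of each medium at 41.1 CPM.

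FBXL5 rose by 0.29 ± 0.08 in ATG7KO (adjusted p = 0.00305) and by 0.28 ± 0.08 in WT cells (adjusted p = 0.00357), and in RB1CC1KO-labelled cells it fell by 0.28 ± 0.08 (adjusted p = 0.0039). The rises stood at 0.13 under upper-quartile scaling and were not called there (adjusted p = 0.169 and 0.167), and the fall was not called without RB1CC1KO-labelled full-medium replicate 3 (-0.20, adjusted p = 0.055). The difference of responses was -0.56 ± 0.12 for RB1CC1KO-labelled minus WT (adjusted p = 0.0018) and 0.01 ± 0.12 for ATG7KO minus WT (adjusted p = 0.979). With 1 library left out, the RB1CC1KO-labelled difference ranged from -0.65 to -0.46, and it stayed called there and in the other alternatives. After EBSS, FBXL5 was 0.58 ± 0.08 lower in RB1CC1KO-labelled than in WT cells (-0.58, adjusted p = 1.11e-06), and in full medium it did not pass the test (-0.02 ± 0.08, adjusted p = 0.91). In ATG7KO over WT it was -0.03 ± 0.08 in full medium (adjusted p = 0.86) and -0.02 ± 0.08 after EBSS (adjusted p = 0.919).

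Over the 8 members with reads, the lines were compared in each medium. For ATG7KO over WT, 3 of 8 were called in full medium, all higher, beside 10.5% of all tested genes (4.47% higher and 6.07% lower), and 2 of 8 after EBSS, both higher, beside 13.2% (6.07% higher and 7.17% lower). For RB1CC1KO-labelled over WT, 3 of 8 were called in full medium, 2 higher and 1 lower, beside 17.2% (8.3% higher and 8.87% lower), and 4 of 8 after EBSS, 3 higher and 1 lower, beside 31.6% (14.8% higher and 16.9% lower). All 4 comparisons use WT libraries, and those in 1 medium share the same 3. TFRC was the member called in all 4.

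NCOA4, the receptor of ferritinophagy, could not be assigned a read count. The GENCODE 29 identifier that carries its name (ENSG00000266412, chr10:46005088-46030714, minus strand) had 0 reads in all 18 libraries, and it comes from a later build than that of the count files, in which 11151 of the 63677 identifiers had no name in the annotation used and held 0.607 to 0.753% of the reads. The 0 is therefore no measure of NCOA4, whose reads may stand under an identifier that the annotation used does not name, and neither its level nor its neighbours by profile are given.

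Copies and overlaps could bear on some counts. Ferritin has many processed pseudogenes. Of 41 in the table, 18 had a read and 4 had 10 or more in a library (FTH1P8, FTLP3, FTH1P16 and FTH1P3), and together they held 1054 reads beside the 193367 of FTH1 and FTL, which is 0.542%. Of the 2 pseudogenes tested, FTLP3 was called higher after EBSS in ATG7KO and RB1CC1KO-labelled cells, and FTH1P8 was not called in any line. Reads lost from the ferritin chains to these copies cannot be counted here. FTH1 shares 1267 of its 2030 exonic bases with BEST1 on the opposite strand, whose reads came to 0.226% of those of FTH1. FBXL5 shares 18 bases with FAM200B on the opposite strand, whose reads came to 50.5% of those of FBXL5. The strand setting is not given, so reads in shared bases may have been counted for neither gene. The BEST1 count therefore does not measure a loss from FTH1. How many reads of the shared bases came from either gene was not tested.

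Other genes of iron handling were read from 6 lists. Beside their counts stand the shares of all tested genes called after EBSS. These were 62.9% in ATG7KO (32.3% higher and 30.6% lower), 65.1% in RB1CC1KO-labelled (31.9% higher and 33.3% lower) and 64.5% in WT cells (32.4% higher and 32.1% lower). No list was tested against these shares. Of 14 genes of uptake and reduction, 10 were tested. After EBSS, 3 were called higher and 5 lower in each line, and their median log2 fold change was -0.20 in ATG7KO, -0.29 in RB1CC1KO-labelled and -0.25 in WT cells. SLC39A14 (ZIP14), an importer of iron that is not bound to transferrin, averaged 418 ± 21.4 CPM after EBSS and 199 ± 3.89 CPM in full medium in ATG7KO, 399 ± 20.0 and 180 ± 7.54 CPM in RB1CC1KO-labelled, and 381 ± 21.4 and 184 ± 6.35 CPM in WT cells. It rose by 1.07 ± 0.06, 1.15 ± 0.06 and 1.05 ± 0.06 on the log2 scale in those lines (adjusted p = 2.09e-17, 1.75e-18 and 2.8e-17). This importer thus stood higher after EBSS in the same libraries in which SLC11A2 stood lower. The ferrireductase STEAP2 fell by 1.08 ± 0.11, 1.29 ± 0.10 and 0.94 ± 0.11 in ATG7KO, RB1CC1KO-labelled and WT cells, and LRP1, a receptor for haem bound to haemopexin, rose by 1.53 ± 0.13, 1.48 ± 0.13 and 1.08 ± 0.13 (all with adjusted p of 2.28e-06 or less).

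Of 9 genes of iron chaperones, mitochondrial carriers and ferritin turnover, 8 were tested. After EBSS 5 were called higher and 1 lower in ATG7KO (median 0.32), 4 higher and 1 lower in RB1CC1KO-labelled (median 0.24) and 3 higher and 1 lower in WT cells (median 0.12). PCBP2, a chaperone that hands iron between transporters and ferritin, rose by 0.64 ± 0.06 in ATG7KO, 0.60 ± 0.06 in RB1CC1KO-labelled and 0.66 ± 0.06 in WT (adjusted p between 4.08e-11 and 3.61e-10). The mitochondrial iron importers went opposite ways in every line: SLC25A28 (mitoferrin-2) rose by 0.48 ± 0.10, 0.37 ± 0.09 and 0.43 ± 0.09, and SLC25A37 (mitoferrin-1) fell by 0.52 ± 0.09, 0.36 ± 0.08 and 0.30 ± 0.08 in ATG7KO, RB1CC1KO-labelled and WT cells (adjusted p of 0.00184 or less).

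Of 15 genes of iron and haem export and the hepcidin axis, 11 were tested. After EBSS 4 were called higher and 3 lower in ATG7KO (median 0.43), 5 higher and 1 lower in RB1CC1KO-labelled (median 0.39) and 6 higher and 1 lower in WT cells (median 0.59). HAMP, which encodes hepcidin, the liver hormone that removes ferroportin from the cell surface, held 76, 70 and 25 reads after EBSS and 5, 5 and 0 in full medium in ATG7KO. It held 93, 152 and 64 reads after EBSS and 2, 1 and 5 in full medium in RB1CC1KO-labelled cells, and 82, 86 and 83 reads after EBSS and 3, 2 and 7 in full medium in WT. HAMP was low but higher in all 9 EBSS libraries, where it averaged 4.99 ± 0.283 CPM in ATG7KO, 5.48 ± 0.967 in RB1CC1KO-labelled and 5.50 ± 0.271 CPM in WT cells.

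The log2 fold change of HAMP was 4.64 ± 0.38 in ATG7KO, 5.08 ± 0.38 in RB1CC1KO-labelled and 4.36 ± 0.36 in WT cells. HAMP had enough reads for testing only through its EBSS libraries. Its calls in the counts above, and these values, are therefore a description. With few reads in full medium, single libraries moved the size. It was 5.89 without RB1CC1KO-labelled full-medium replicate 3 and 5.12 without WT full-medium replicate 3. With any 1 library left out it was 3.83 or more in every line. Its response was not shown to differ between lines (0.28 ± 0.69, adjusted p = 0.901 for ATG7KO minus WT and 0.72 ± 0.73, adjusted p = 0.622 for RB1CC1KO-labelled minus WT). SMAD4, the shared signal transducer of the pathway that switches on hepcidin, rose by 1.18 ± 0.07 in ATG7KO, 1.04 ± 0.06 in RB1CC1KO-labelled and 1.07 ± 0.06 in WT cells. NEO1, a receptor that binds the hepcidin activator haemojuvelin, rose by 0.63 ± 0.06, 0.65 ± 0.06 and 0.60 ± 0.06 in those lines (adjusted p of 3.17e-11 or less for both genes).

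Of 15 genes of haem synthesis and breakdown, 13 were tested. After EBSS 8 were called lower and 1 higher in ATG7KO (median -0.26), 8 lower and 1 higher in RB1CC1KO-labelled (median -0.30) and 9 lower and 0 higher in WT cells (median -0.40). Of all tested genes, 30.6, 33.3 and 32.1% were called lower and 32.3, 31.9 and 32.4% higher in those lines. UROS, an enzyme of the porphyrin pathway, fell by 0.52 ± 0.10, 0.67 ± 0.10 and 0.71 ± 0.10 in ATG7KO, RB1CC1KO-labelled and WT cells. PPOX, a later enzyme of that pathway, fell by 0.51 ± 0.12, 0.63 ± 0.12 and 0.71 ± 0.12 in the same lines. HMOX1, which frees iron from haem, fell by 0.75 ± 0.12 in ATG7KO, 0.89 ± 0.13 in RB1CC1KO-labelled and 0.78 ± 0.11 in WT cells (adjusted p of 0.000588 or less for the 3 genes). HMOX1 also averaged 9.82 ± 0.755 CPM in RB1CC1KO-labelled and 18 ± 1.08 CPM in WT cells in full medium, a log2 fold change of -0.88 ± 0.11 (adjusted p = 1.86e-07).

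Of 20 genes of iron-sulfur cluster assembly, 19 were tested. After EBSS 4 were called higher and 6 lower in ATG7KO, 3 higher and 7 lower in RB1CC1KO-labelled and 5 higher and 8 lower in WT cells, with medians of -0.03, -0.07 and -0.08. GLRX5, the mitochondrial glutaredoxin of this pathway, fell by 0.73 ± 0.08, 0.48 ± 0.07 and 0.63 ± 0.08 in ATG7KO, RB1CC1KO-labelled and WT cells, and ISCA2, a late-acting assembly factor, by 0.87 ± 0.12, 0.80 ± 0.11 and 0.76 ± 0.11 (adjusted p of 3.96e-07 or less for both genes).

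**Figure D5:**
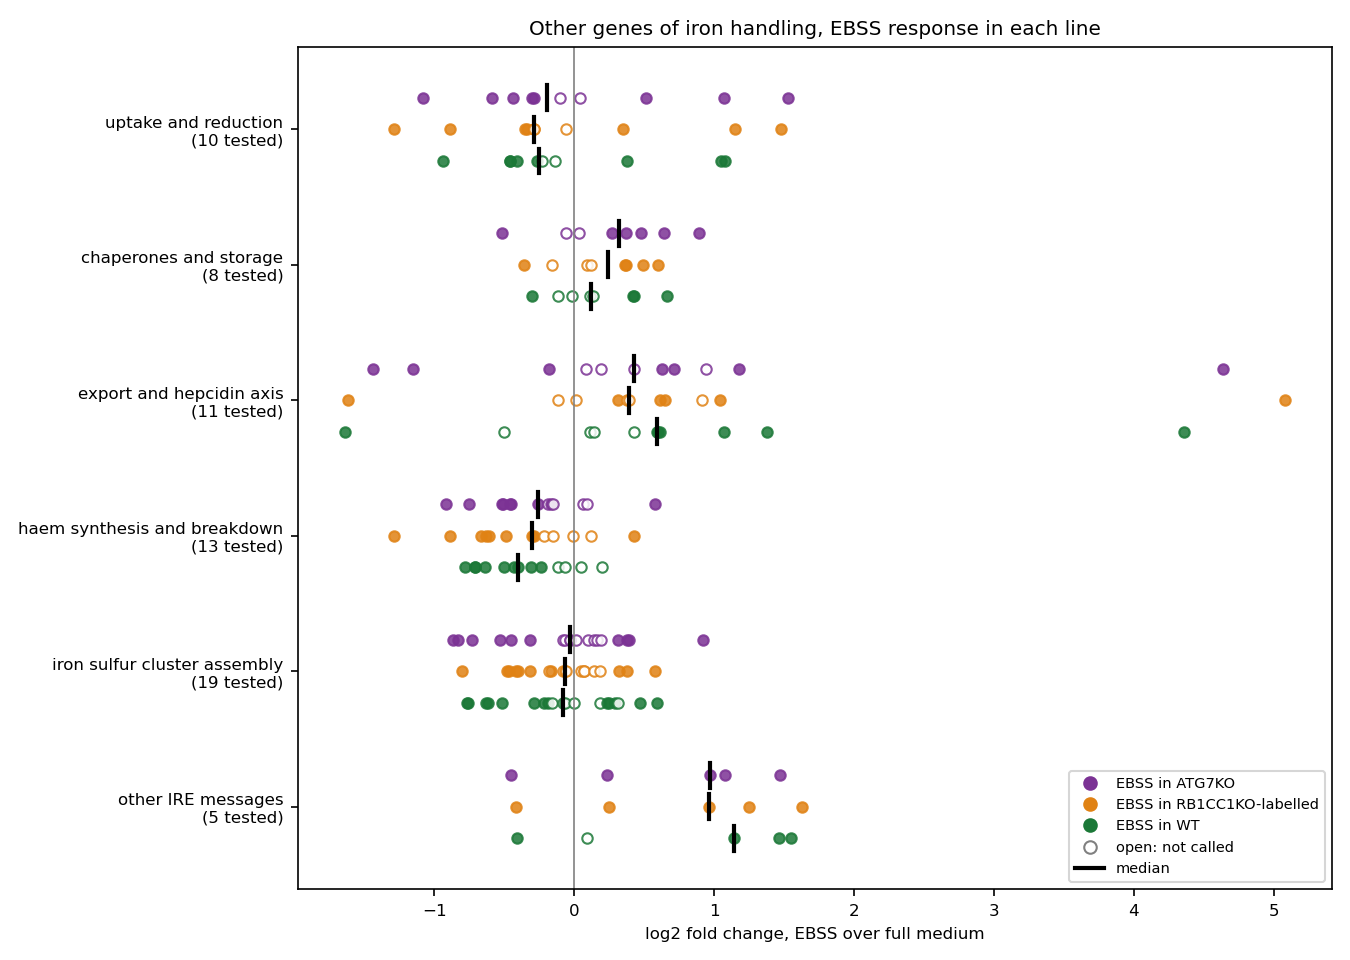
Log2 fold changes for EBSS over full medium (horizontal axis) of the tested genes of 6 lists of iron handling in ATG7KO, RB1CC1KO-labelled and WT cells; filled points were called, open points were not, and black bars mark each list's median. HAMP lay farthest to the right at 4.36 to 5.08, and the haem genes lay mostly below 0 with medians of -0.26, -0.30 and -0.40.

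Of 6 other messages for which iron-responsive elements are known, 5 were tested. After EBSS 4 were called higher and 1 lower in ATG7KO (median 0.97) and in RB1CC1KO-labelled cells (median 0.96), and 3 higher and 1 lower in WT (median 1.14). CDC14A, a phosphatase, rose by 1.47 ± 0.11 in ATG7KO, 1.25 ± 0.10 in RB1CC1KO-labelled and 1.46 ± 0.11 in WT cells. CDC42BPA, a kinase that acts on the cytoskeleton, rose by 0.97 ± 0.07, 0.96 ± 0.07 and 1.14 ± 0.07 in those lines. EPAS1 (HIF-2α), a hypoxia-inducible transcription factor, rose by 1.08 ± 0.22, 1.63 ± 0.21 and 1.55 ± 0.24 (adjusted p of 7.01e-05 or less for the 3 genes). The hairpin search gave 25 genes outside the members, of which 16 were tested, and these moved both ways. In ATG7KO 6 were called higher and 4 lower (median 0.11), in RB1CC1KO-labelled 6 higher and 3 lower (median -0.06) and in WT cells 6 higher and 6 lower (median -0.15). Of all tested genes, 62.9, 65.1 and 64.5% were called in those lines.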

How the data were processed

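Poly(A) RNA of 18 HAP1 libraries, 3 in each of 6 groups, was sequenced with a directional kit as 75 bp single-end reads, per the labels' protocols. The authors deposited whole-number read counts per Ensembl gene for each library, with 5 summary lines, which entered neither library sizes nor tests. Reads in no gene made up 9.39 to 15.1% and reads in more than 1 gene 2.08 to 2.42%. The submitters' processing notes list the build GRCh37 (hg19), HTSeq 0.6.1p1, STAR 2.4.2a, DESeq2, edgeR and Picard. No source used here gives the strand setting or annotation release, so that reads of overlapping genes on opposite strands cannot be told apart. Names, exons and positions came from GENCODE 29 (GRCh38), which named 52526 of 63677 identifiers.

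Counts were fitted in R 4.3.3 with edgeR 4.0.16 (limma 3.58.1). Genes passing filterByExpr were kept (15179), libraries were scaled by TMM, and 1 robust quasi-likelihood model with 6 group means was fitted to all 18 libraries, with a common biological coefficient of variation of 6.72%. Calls were made where p, adjusted over all tested genes by Benjamini-Hochberg, was below 0.05, and every adjusted p is from edgeR's quasi-likelihood test. The standard error of a log2 fold change is its size divided by the square root of F. The 9 comparisons were the EBSS response of each line, the contrast of ATG7KO and of RB1CC1KO-labelled cells with WT within a medium, and the difference of EBSS responses from WT. Replicates differed by more than counting noise (chi-square per degree of freedom 2.4 to 11.5).

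The members, the 6 lists of iron genes and the 4 marker lists (macrophage, hepatocyte, erythroid and haematopoietic) were chosen with earlier results of these data known. Named genes were all members, ATG7 and RB1CC1, up to 3 genes with the smallest p for EBSS in WT from each list, ferritin pseudogenes with at least 10 reads in a library, and the 5 genes closest in profile to SLC40A1 and to TFRC. Some genes of the lists are not reported here. The model was tested on simulated counts. Alternatives were DESeq2 size factors, upper-quartile scaling, no filter, DESeq2 1.42.0, the compared groups only, a replicate block, and each library left out. A fit without the shallowest and the deepest library was added after seeing the data.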

Additional observations from a re-analysis of the deposited data

Results flagged for a closer look

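Of the members' EBSS responses, 3 differed between a knockout-labelled line and WT in the test of the difference itself (edgeR quasi-likelihood test). The TFRC response was 0.63 ± 0.09 higher on the log2 scale in ATG7KO than in WT (adjusted p = 2.34e-05), and the EBSS libraries lay below full medium in all 3 replicates of both lines. It was 1.38 ± 0.09 higher in RB1CC1KO-labelled than in WT cells (adjusted p = 2.69e-13), where TFRC did not fall. The FBXL5 response was -0.56 ± 0.12 in RB1CC1KO-labelled minus WT cells (adjusted p = 0.0018). Since each genotype is 1 line, knockout and line cannot be told apart.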

How the results depend on the processing

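Each member's fold changes were recomputed under every alternative, giving 1030 values. Of these, 965 kept their side of the threshold or, for the untested EBSS values of SLC40A1, stayed within the standard error of the main value. Another 57 lost the call, 3 reversed sign with a call in the main or the alternative fit, and 5 values of SLC40A1 moved by more than that standard error. A change of sign between uncalled values was counted among the 965. The 3 reversals came under upper-quartile scaling, with FTH1 at -0.14 in ATG7KO and -0.02 in WT and ACO1 at -0.01 in WT on EBSS. That scaling put the median gene at -0.17 in all 3 EBSS comparisons and the share of higher calls at 37.2, 37.0 and 37.4% in ATG7KO, RB1CC1KO-labelled and WT cells, in place of 51.3, 48.9 and 50.3%. It left 3 of 7 members called for EBSS in RB1CC1KO-labelled cells (6 in the main analysis) and 3 in WT (7). Without the filter 4 members were called for EBSS in WT, 2 for RB1CC1KO-labelled over WT after EBSS (main 4), and 281 genes for the ATG7KO minus WT response (main 160). Members called for RB1CC1KO-labelled over WT after EBSS also numbered 2 with the compared groups only and 2 without the shallowest and deepest libraries. For these counts the cause was not tested. With 1 library left out, members called ranged from 4 to 5 for EBSS in WT, 1 to 2 for ATG7KO over WT after EBSS and 2 to 4 for RB1CC1KO-labelled over WT after EBSS. Genes called then ranged from 71 to 275 for the ATG7KO minus WT response, 789 to 1588 for the RB1CC1KO-labelled minus WT response (main 1238) and 1235 to 1922 for ATG7KO over WT after EBSS (main 2010). Some same-numbered libraries deviated together, but in no comparison did all 3 pairs: correlations ran from -0.30 to 0.67, and libraries were closest to their own number in 1 or 2 of 3 pairs. A replicate block left the members called at 4, 6 and 7 for EBSS in ATG7KO, RB1CC1KO-labelled and WT cells, and it raised genes called for the ATG7KO minus WT response to 293. Depth limits SLC40A1 after EBSS.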
